A study of Homo sapiens with 12 samples.

Results

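The genes described are 33 that build cholesterol and fatty acids, of the 18950 genes in the deposited RNA sequencing table. They were chosen by symbol from known steps of the mevalonate and sterol pathways (19 genes), from the control of these pathways by the sterol regulatory element-binding proteins (SREBPs) with a sterol carrier (6 genes), and from the making and modification of fatty acids (8 genes). Earlier results of these data were known when they were chosen, so comparisons of their shares with all genes may not be independent of the data. All 33 were in the table, and all 33 reached the expression minimum of 1 CPM (counts per 1000000 of a scaled library total) in at least 3 of the 12 libraries, which 12527 genes met. The RNA was total RNA of the prostate cancer cell lines DU145 and PC3, both human and established, grown in DMEM with serum and sorted on how brightly they showed GFP, a green fluorescent reporter protein. The labels call the top 10% (GFP+) Wnt/β-catenin active and the bottom 10% (GFP-) inactive, so the 4 groups (DU145 GFP+, DU145 GFP-, PC3 GFP+ and PC3 GFP-) differ by line and sort and had 3 libraries each. The sources used here give neither the reporter construct nor whether a line was 1 clone. Nothing in the labels says that the 3 libraries of a group were separate cultures, so the p-values rest on a spread between libraries that may be technical.

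Cholesterol is made from acetyl-CoA by way of mevalonate, isoprenoid diphosphates, squalene and lanosterol, and fatty acids are made from the same acetyl-CoA by way of malonyl-CoA. When sterols run low in the endoplasmic reticulum, the escort protein SCAP carries SREBPs to the Golgi, where they are cut and released to the nucleus to switch on most genes of both pathways, while INSIG proteins hold SCAP back when sterols are plentiful. Prostate cancer cells are known for high lipid synthesis, with fatty acid synthase as its best known enzyme.

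The libraries held 13453614 to 21528810 estimated counts, and in the shallowest a gene without a count could still be at 0.233 CPM, counting error only. The Wnt target LEF1 was higher in GFP+ cells of both lines, at 2.21 against 0.642 CPM in DU145 (limma adjusted p = 0.00508) and 4.41 against 1.43 CPM in PC3 (adjusted p = 0.0106, and 0.0557 without PC3 GFP+ replicate 1), while AXIN2 lay below the expression minimum. Against the labelled cell type, the epithelial markers EPCAM, KRT19 and CDH1 lay under 0.4 CPM in every group mean, whereas KRT8 and KRT18 were at 1753 and 1375 CPM in DU145 GFP+ and at 18.1 and 369 CPM in PC3 GFP+. Of the 6 prostate luminal markers, KLK3 and TMPRSS2 had at most 1 count in any group, and 1 marker had a count in every library of each group. The sum of the 6 was 17.6 to 21.5 CPM in DU145 GFP+ and 16.5 to 18.4 CPM in DU145 GFP- libraries. In PC3 it was 11.6 to 12.9 CPM in GFP+ and 7.77 to 10.0 CPM in GFP- libraries. CTNNA1, the α-catenin gene that PC3 stocks are known for lacking, stood at 387 CPM in PC3 GFP+ and 408 CPM in PC3 GFP-, so the line names used here are those of the labels. The summed level of 6 epithelial markers, 4 of them with a count in every DU145 library, was 2882 to 3592 CPM in DU145 GFP+ and 4422 to 4892 CPM in DU145 GFP-. Its part in the DU145 differences was not tested. The sum of the leukocyte markers CD68 and PTPRC also differed in DU145 (24.6 to 30.4 against 38.4 to 42.3 CPM), nearly all of it CD68, since PTPRC had 1 count in GFP+ and 0 in GFP- libraries. The sum of 3 stromal markers was low, at 1.66 to 2.44 against 1.26 to 1.42 CPM in DU145 and 3.73 to 4.44 against 1.64 to 3.76 CPM in PC3. ACTA2 rose in DU145 GFP+ (62 against 16 counts, limma adjusted p = 0.0153) and COL3A1 in PC3 GFP+ (169 against 1 counts, adjusted p = 0.000175), and the part of these markers in the results was not tested.

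In DU145, most of the lipid genes that differed were lower in GFP+ than in GFP- cells, 9 of the 19 in the mevalonate and sterol arms and 5 of the 8 in the fatty acid arm among them. Of the 33 genes, 17 fell and 4 rose (limma, Benjamini-Hochberg adjusted p under 0.05 within the comparison), or 63.6%, where 27.1% of all tested genes changed, 13.1% upward and 13.9% downward. Their median log2 fold change (GFP+ over GFP-) was -0.28, against -0.01 for all tested genes. Falls came from the supply of acetyl-CoA (ACLY, ACSS2), mevalonate (MVK, MVD), squalene (FDFT1), the last reduction of cholesterol synthesis (DHCR7) and fatty acid synthase itself (FASN). The rises were ELOVL6, INSIG2, IDI1 and GGPS1. In these sorted populations, fewer cells of a type and less RNA per cell cannot be told apart.

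The DU145 count depended on the libraries, and which genes were called depended also on whether the trend with base composition was removed. The count was 12 without DU145 GFP+ replicate 1 and 12 without DU145 GFP- replicate 3. Those fits called 7.15% and 7.71% of all genes, against 27.1% with every library. DU145 GFP+ replicates 1 and 3 correlated least within that group (0.974). Without GFP+ replicate 3 the count was 22, in a fit that called 44.7% of all genes. Without GFP+ replicates 1 and 2, which leaves 1 library in that group, the median log2 fold change of the 33 was -0.20, against -0.01 for all tested genes. The split was 1 higher and 19 lower with equal library medians, which moved the all-gene median to -0.10, and 1 higher and 12 lower with quantile normalization. These 2 fits called 28.9% and 18% of all genes. Across all genes, the DU145 log2 fold change ran with the GC content of the transcript (Spearman's rho -0.64 over 12510 genes, which share the libraries and are not independent replicates), and it did so among the 33 genes too (rho -0.64). With the trend in GC content and length removed, 20 of the 33 fell and 2 rose, where 22.5% of all genes changed, and 16 of these calls were among the 21 above.

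**Figure D1:**
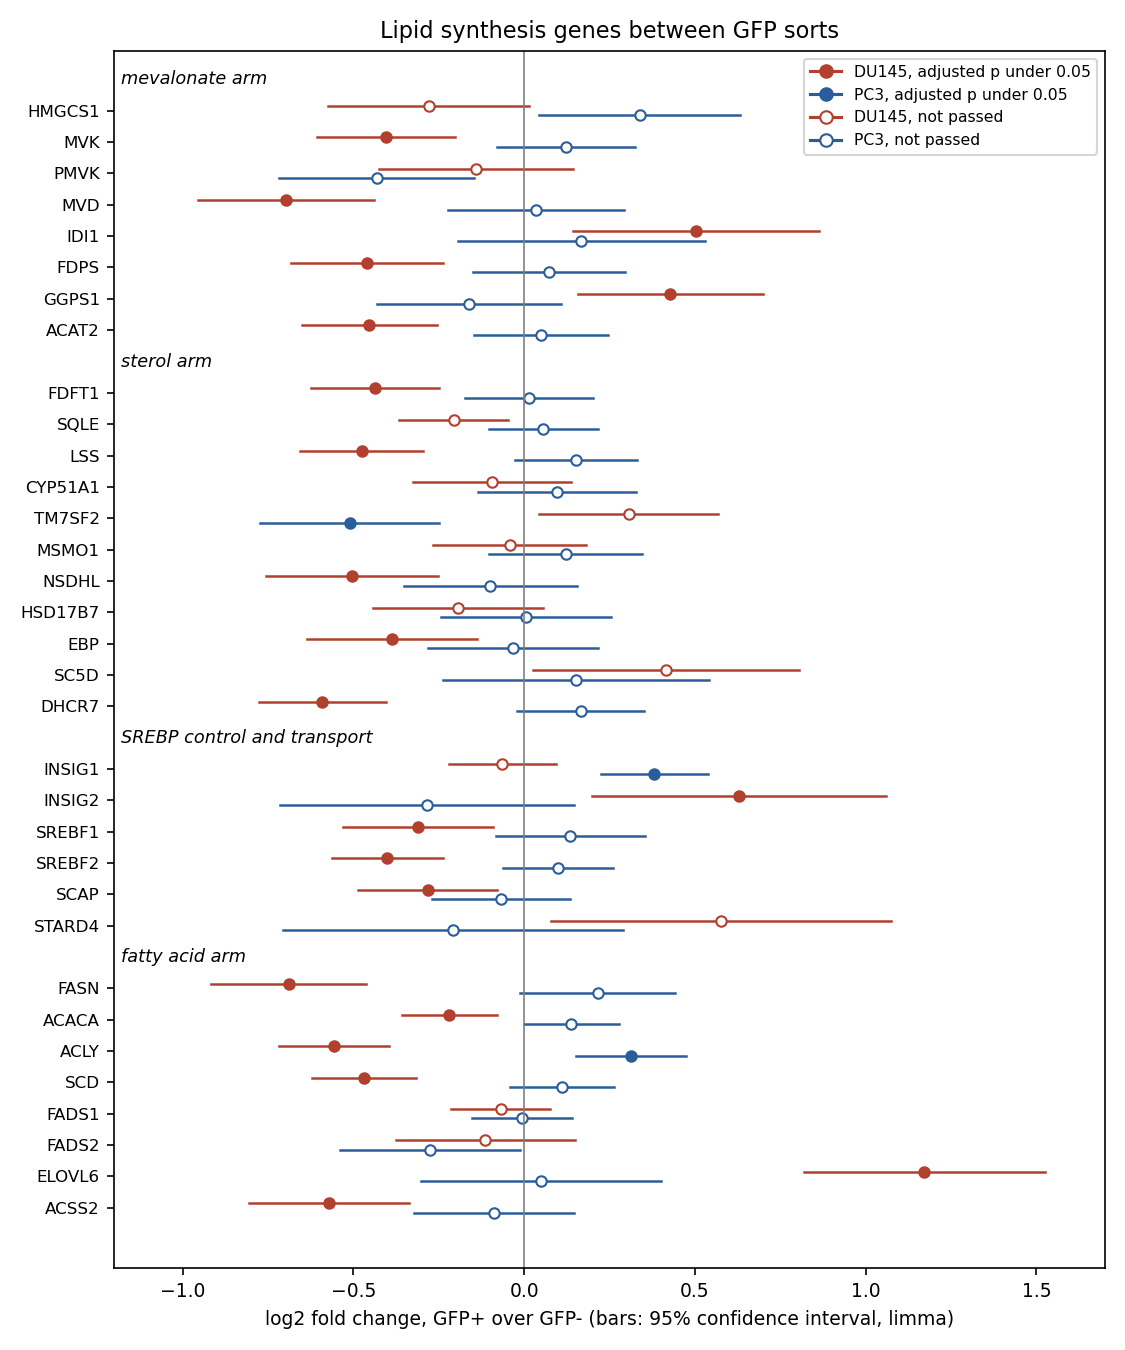
Log2 fold change of each of the 33 genes between GFP+ and GFP- cells (x axis), grouped by role (y axis), in DU145 and PC3; bars are 95% confidence intervals of the limma fit over 12 libraries and filled points passed an adjusted p of 0.05. In DU145 17 filled points lie left of 0 and 4 right of it, with ELOVL6 farthest right at 1.17, while PC3 has 3 filled points.

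Because most of these genes are known to share control through their promoters, the 250 bases before and the 50 bases after the transcription start were read from RefSeq (GRCh38.p14), which matched 29 of the 33 by symbol. FDFT1, SQLE, ACAT2 and FASN had no match, so their promoters were not read. The letters of a sterol response element type, TCACNCCAC on either strand, were in 1 of the 29 windows, that of SREBF2, which encodes SREBP2, and in 1.13% of all 35116 promoter windows. Only these exact letters were searched, so a window without them may hold another form of the element. CCAAT on either strand, the box bound by nuclear factor Y, which is known to act together with SREBPs, was in 18 of 29 windows (62.1%), against 34.6% of all promoter windows and 36.9% of those of tested genes. The GC box GGGCGG on either strand was in 26 of 29 (89.7%), against 45.0% of all windows and 71.7% for tested genes. The E-box CACGTG, its own reverse complement, was in 4 of 29 (13.8%), against 7.26% of all windows and 10.2% for tested genes. No motif contains another, although neighbouring matches can share end letters. For the 29 genes and for tested genes the first listed window of each gene was read, while the 35116 windows count every one listed. The shares of tested genes are therefore the closer comparison. A match is a description of letters and not a bound site.

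Of the 18 genes with CCAAT in the window, 11 fell in DU145, 0 rose and 7 did not pass the limma test, and of the 11 without it, 3 fell, 4 rose and 4 did not pass. Not all of the rises held once the trend with base composition was removed. With the GC and length trend removed, IDI1 (0.11, limma adjusted p = 0.401), GGPS1 (0.03, 0.897) and INSIG2 (0.10, 0.759) did not pass. In that fit ELOVL6 still rose (0.71, 0.00436), and so did TM7SF2, which holds CCAAT (0.55, 0.000667). At an unadjusted p under 0.05 the limma fit had 7 of all 33 genes higher and 18 lower, and voom called 2 higher and 17 lower after adjustment. Over all tested genes with a promoter, CCAAT was in 36.9% of those that fell, 35.6% of those that rose and 37.2% of those that did not pass. Of the 3567 tested genes with CCAAT, 508 fell, 460 rose and 2599 did not pass. Of all 9659 with a promoter, 1378 fell, 1293 rose and 6988 did not pass. Windows are printed for SREBF2 (chr22:41832855-41833154, + strand), as the only member with the sterol element letters, and for DHCR7 (chr11:71448344-71448643, - strand), MVD (chr16:88663042-88663341, - strand) and ACLY (chr17:41918973-41919272, - strand), which fell and hold CCAAT, beside ELOVL6 (chr4:110198566-110198865, - strand), which rose and holds none. The last 4 were chosen after their values were seen. Each runs 5′ to 3′ on the gene's strand, and capitals mark matches to TCACNCCAC and to CCAAT or its complement.
SREBF2: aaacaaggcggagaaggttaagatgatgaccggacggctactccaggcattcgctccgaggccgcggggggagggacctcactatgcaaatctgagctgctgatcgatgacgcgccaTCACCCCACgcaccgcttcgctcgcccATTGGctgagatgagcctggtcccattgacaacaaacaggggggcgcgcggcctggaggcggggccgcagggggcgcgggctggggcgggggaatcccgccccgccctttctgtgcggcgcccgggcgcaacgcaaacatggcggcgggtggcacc
DHCR7: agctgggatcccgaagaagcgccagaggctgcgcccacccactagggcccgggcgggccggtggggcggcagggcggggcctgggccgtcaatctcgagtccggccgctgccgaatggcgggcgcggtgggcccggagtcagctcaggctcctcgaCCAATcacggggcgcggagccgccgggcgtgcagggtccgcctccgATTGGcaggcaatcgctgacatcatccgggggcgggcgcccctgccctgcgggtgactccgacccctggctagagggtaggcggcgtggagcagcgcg
MVD: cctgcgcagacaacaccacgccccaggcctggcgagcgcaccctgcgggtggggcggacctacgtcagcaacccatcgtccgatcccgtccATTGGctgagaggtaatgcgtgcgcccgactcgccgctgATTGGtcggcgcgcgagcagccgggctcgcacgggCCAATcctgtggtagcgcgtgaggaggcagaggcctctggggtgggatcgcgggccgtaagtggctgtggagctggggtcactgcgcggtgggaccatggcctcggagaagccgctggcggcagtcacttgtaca
ACLY: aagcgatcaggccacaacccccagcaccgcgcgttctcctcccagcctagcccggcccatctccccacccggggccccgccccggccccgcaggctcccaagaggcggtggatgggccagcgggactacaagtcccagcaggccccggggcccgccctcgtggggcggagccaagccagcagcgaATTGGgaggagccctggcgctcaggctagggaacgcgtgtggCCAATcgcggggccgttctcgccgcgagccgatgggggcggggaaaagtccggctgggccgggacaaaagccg
ELOVL6: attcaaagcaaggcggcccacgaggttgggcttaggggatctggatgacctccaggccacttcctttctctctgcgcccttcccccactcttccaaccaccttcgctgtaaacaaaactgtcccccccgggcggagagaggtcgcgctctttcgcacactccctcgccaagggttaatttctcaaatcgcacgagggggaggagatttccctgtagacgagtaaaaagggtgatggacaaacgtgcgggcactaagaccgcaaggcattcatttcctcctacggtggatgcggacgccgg
The SREBF2 match to the sterol element lies 133 to 125 bases before the start, with a CCAAT box on the opposite strand 106 to 102 bases before it. The MVD window holds 3 CCAAT boxes, and the DHCR7 and ACLY windows hold 2 each.

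The mevalonate arm turns acetyl-CoA into isoprenoid diphosphates. Of its 8 genes, 4 fell in DU145 GFP+ cells (ACAT2, MVK, MVD and FDPS), 2 rose (IDI1 and GGPS1) and 2 did not pass (HMGCS1 and PMVK), with a median log2 fold change of -0.34. Thus 75% changed, against 27.1% of all tested genes (13.1% upward, 13.9% downward). MVD, the decarboxylase that makes isopentenyl diphosphate (ENSG00000167508, chromosome 16, 88651935 to 88663161 in GRCh38), stood at 119, 132 and 156 CPM in DU145 GFP+ replicates 1, 2 and 3 and at 219, 199 and 239 CPM in GFP- replicates 1, 2 and 3. Every GFP+ library lay below every GFP- library. The log2 fold change of MVD was -0.70 ± 0.12 (SE; limma adjusted p = 0.00267). FDPS, whose product joins isoprenoid units into farnesyl diphosphate, stood at 243, 272 and 319 CPM in GFP+ and at 379, 365 and 396 CPM in GFP- libraries (-0.46 ± 0.10, adjusted p = 0.01). Its groups did not overlap either, and GFP+ replicate 3 came nearest to the GFP- libraries, as for MVD. ACAT2, the cytosolic thiolase at the entry to the pathway, was at 91.4 ± 11.9 CPM in GFP+ and 125 ± 10.2 CPM in GFP- libraries (SD, n = 3; -0.45 ± 0.09, limma adjusted p = 0.00632). MVK, mevalonate kinase, was at 69.9 ± 6.67 against 92.5 ± 5.25 CPM (-0.41 ± 0.09, adjusted p = 0.011).

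IDI1 and GGPS1 went the other way. IDI1, the isomerase that balances the isoprenoid building blocks, stood at 31.2, 26.2 and 21.6 CPM in DU145 GFP+ and 18.0, 22.9 and 15.1 CPM in GFP- libraries (log2 fold change 0.50 ± 0.17, limma adjusted p = 0.0415). The lowest GFP+ library lay below the highest GFP- library, so the groups overlapped. GGPS1, which makes the geranylgeranyl diphosphate used for lipid anchors on proteins, stood at 11.6, 10.6 and 10.4 CPM in GFP+ and 7.85, 8.43 and 7.87 CPM in GFP- libraries, without overlap (0.43 ± 0.13, adjusted p = 0.0265). HMGCS1, the synthase that commits acetyl-CoA units to the pathway, was at 65.5 ± 9.76 against 79.2 ± 9.75 CPM (-0.28 ± 0.14, adjusted p = 0.131). PMVK, the kinase after MVK, was at 43.5 ± 5.70 against 47.8 ± 4.12 CPM (-0.14 ± 0.13, adjusted p = 0.429).

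Leaving out 1 library ended some of these mevalonate calls in DU145. MVK lost its call without DU145 GFP+ replicate 1 or 2 or DU145 GFP- replicate 3 (limma adjusted p = 0.0518 to 0.0573), and FDPS without DU145 GFP+ replicate 1 (0.0526). GGPS1 lost it without DU145 GFP+ replicate 1 or 2 or DU145 GFP- replicate 1 or 3 (0.069 to 0.108), and IDI1 without DU145 GFP+ replicate 1 or 2, DU145 GFP- replicate 1 or 3, any PC3 GFP+ library or PC3 GFP- replicate 1 (0.0528 to 0.181). With the GC and length trend removed, IDI1 was at 0.11 (adjusted p = 0.401) and GGPS1 at 0.03 (0.897), while HMGCS1 fell (-0.72, 2.11e-05). Counts of FDPS and ACAT2 were fractional in 12 libraries and those of HMGCS1 in 10, so reads shared with near copies may have been divided there. The exons of FDPS, ACAT2, MVK, IDI1 and GGPS1 overlap those of a gene on the opposite strand (by 693 bases with RUSC1-AS1, 397 with TCP1, 306 with MMAB, 643 with IDI2-AS1 and 138 with ARID4B), and the sources used here do not say whether the counting used strand.

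The sterol arm joins farnesyl units into squalene, closes the rings and trims lanosterol to cholesterol. Of its 11 genes, 5 fell in DU145 GFP+ cells (FDFT1, LSS, NSDHL, EBP and DHCR7), 0 rose and 6 did not pass, with a median of -0.21. Thus 45.5% changed, against 27.1% of all tested genes (13.1% upward, 13.9% downward). At an unadjusted p under 0.05 the limma fit had 2 of the 11 higher and 6 lower, and voom called 0 higher and 5 lower after adjustment. DHCR7, the reductase that finishes cholesterol (ENSG00000172893, chromosome 11, 71428193 to 71452868), stood at 347, 352 and 408 CPM in GFP+ and at 555, 520.3 and 590.0 CPM in GFP- libraries. The lowest GFP- library lay far above the highest GFP+ library, and the log2 fold change was -0.59 ± 0.09 (limma adjusted p = 0.000987). LSS, lanosterol synthase (ENSG00000160285, chromosome 21, 46188141 to 46228824), stood at 217, 234 and 259 CPM in GFP+ and 325, 309.8 and 351 CPM in GFP- libraries, again without overlap (-0.48 ± 0.08, adjusted p = 0.003). FDFT1, squalene synthase, was at 226 ± 25.5 against 305 ± 11.8 CPM (-0.44 ± 0.09, adjusted p = 0.00605). NSDHL, which helps remove methyl groups from the sterol ring, was at 45.2 ± 5.80 against 63.9 ± 5.39 CPM (-0.50 ± 0.12, adjusted p = 0.0113). EBP, the sterol isomerase, was at 89.0 ± 13.5 against 116 ± 7.46 CPM (-0.39 ± 0.12, adjusted p = 0.0289).

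The 6 sterol genes that did not pass in DU145 had differences in both directions. SQLE, squalene epoxidase, stood at 115, 131 and 109.7 CPM in GFP+ and 137, 137 and 135 CPM in GFP- libraries, without overlap (log2 fold change -0.21 ± 0.07, limma adjusted p = 0.0541). TM7SF2, a sterol reductase, stood at 38.6, 41.7 and 46.8 CPM in GFP+ and 31.6, 32.4 and 38.9 CPM in GFP- libraries, with GFP- replicate 3 just above the lowest GFP+ library (0.31 ± 0.12, adjusted p = 0.0733). SC5D, the sterol desaturase, stood at 26.2, 15.1 and 17.0 CPM in GFP+ and 13.7, 14.6 and 14.1 CPM in GFP- libraries (0.42 ± 0.18, adjusted p = 0.0969), and GFP+ replicate 1 alone lay far above the rest. CYP51A1 (-0.10 ± 0.11, adjusted p = 0.514), MSMO1 (-0.04 ± 0.10, 0.786) and HSD17B7 (-0.19 ± 0.12, 0.213), which act in stripping methyl groups from lanosterol, had intervals that spanned 0. NSDHL lost its call without DU145 GFP+ replicate 2 or DU145 GFP- replicate 3 (0.0578 to 0.0592), and EBP without DU145 GFP+ replicate 1 or 2 or DU145 GFP- replicate 1 or 3 (0.0918 to 0.131). With the GC and length trend removed, SQLE (-0.32, adjusted p = 0.000441), CYP51A1 (-0.46, 0.0039) and MSMO1 (-0.49, 0.016) fell and TM7SF2 rose (0.55, 0.000667).

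Among the 6 control and transport genes, SREBF2, SREBF1 and SCAP fell in DU145 GFP+ cells, INSIG2 rose, and INSIG1 and STARD4 did not pass, with a median of -0.17. Thus 66.7% changed, against 27.1% of all tested genes (13.1% upward, 13.9% downward). SREBF2, which encodes the SREBP that favours cholesterol genes (ENSG00000198911, chromosome 22, 41833079 to 41907308), stood at 289, 302 and 313 CPM in GFP+ and 390.3, 374 and 428 CPM in GFP- libraries. Its groups lay well apart, with a log2 fold change of -0.40 ± 0.07 (limma adjusted p = 0.00426). SREBF1, whose SREBP favours fatty acid genes, stood at 240.4, 263 and 304 CPM in GFP+ and 327, 304 and 371 CPM in GFP- libraries (-0.31 ± 0.10, adjusted p = 0.0386). There GFP+ replicate 3 met the lowest GFP- library, so the groups overlapped. SCAP, the SREBP escort, was at 208 ± 12.4 against 253 ± 26.6 CPM (-0.28 ± 0.09, adjusted p = 0.0417).

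INSIG2, an anchor that keeps SCAP in the endoplasmic reticulum, was near the bottom of the range, at 4.21, 2.80 and 3.69 CPM in DU145 GFP+ and 2.15, 2.55 and 2.14 CPM in GFP- libraries (152 against 106 counts in all), without overlap. Its log2 fold change was 0.63 ± 0.20 (limma adjusted p = 0.035). INSIG1, the anchor that SREBPs themselves switch on, stood at 62.7, 72.5 and 62.6 CPM in GFP+ and 68.9, 70.0 and 67.4 CPM in GFP- libraries, overlapping (-0.06 ± 0.07, 95% interval -0.22 to 0.09, adjusted p = 0.519). STARD4, a soluble sterol carrier, was at 16.0 ± 2.18 against 10.7 ± 1.56 CPM (0.58 ± 0.23, adjusted p = 0.0761), and after removal of the GC and length trend its difference was -0.17 (0.418). INSIG2 lost its call without DU145 GFP+ replicate 1, DU145 GFP- replicate 1 or 3 or PC3 GFP+ replicate 1 (0.0505 to 0.152), SREBF1 without DU145 GFP+ replicate 1 or 2, DU145 GFP- replicate 1 or 3 or any PC3 GFP+ library (0.0509 to 0.172), and SCAP without DU145 GFP+ replicate 1 or 2, DU145 GFP- replicate 1 or 3, any PC3 GFP+ library or PC3 GFP- replicate 1 (0.0508 to 0.169). With the GC and length trend removed, INSIG2 (0.10, adjusted p = 0.759), SREBF1 (-0.06, 0.338) and SCAP (-0.05, 0.566) did not pass and INSIG1 fell (-0.20, 0.011). SREBF2 counts were fractional in 11 libraries and SREBF1 counts in 8, and SREBF1 shares 556 exon bases with RAI1 on the opposite strand.

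The fatty acid arm held the most abundant of the 33 transcripts. Of its 8 genes, 5 fell in DU145 GFP+ cells (FASN, ACLY, ACSS2, SCD and ACACA), 1 rose (ELOVL6) and 2 did not pass (FADS1 and FADS2), with a median of -0.34. Thus 75% changed, against 27.1% of all tested genes (13.1% upward, 13.9% downward). FASN, fatty acid synthase (ENSG00000169710, chromosome 17, 82078333 to 82098332), stood at 2169, 2329 and 2589 CPM in GFP+ and 3611, 3493 and 4343 CPM in GFP- libraries. The highest GFP+ library lay far below the lowest GFP- library, and the log2 fold change was -0.69 ± 0.11 (limma adjusted p = 0.00129). ACLY, which splits citrate to supply acetyl-CoA (ENSG00000131473, chromosome 17, 41866908 to 41930542), stood at 656, 736 and 740.3 CPM in GFP+ and 1026, 1000.2 and 1109.9 CPM in GFP- libraries (-0.56 ± 0.07, adjusted p = 0.000584). SCD, the desaturase that makes oleate, stood at 848, 997 and 914 CPM in GFP+ and 1239, 1275 and 1299 CPM in GFP- libraries (-0.47 ± 0.07, adjusted p = 0.00117). Neither gene's groups overlapped. ACSS2, which makes acetyl-CoA from acetate, stood at 58.3, 69.2 and 70.8 CPM in GFP+ and 96.5, 87.7 and 111 CPM in GFP- libraries, without overlap (-0.57 ± 0.11, adjusted p = 0.00466). ACACA, which makes malonyl-CoA, was at 198 ± 10.9 against 229.9 ± 6.23 CPM (-0.22 ± 0.06, adjusted p = 0.0268), and lost its call without DU145 GFP+ replicate 1 or DU145 GFP- replicate 1 or 3 (0.0859 to 0.094).

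ELOVL6, the elongase that turns palmitate into stearate (ENSG00000170522, chromosome 4, 110045846 to 110199199), went against the other fatty acid genes that passed. It was at 6.69, 5.15 and 6.25 CPM in DU145 GFP+ and 2.58, 2.55 and 2.86 CPM in GFP- libraries, 259 against 124 counts in all. The lowest GFP+ library lay above the highest GFP- library, and the level was 2.25-fold higher (log2 fold change 1.17 ± 0.16, limma adjusted p = 0.000729). With the GC and length trend removed its difference was 0.71 (adjusted p = 0.00436). FADS1 and FADS2, the desaturases for polyunsaturated fatty acids, which share 490 exon bases on opposite strands, were at 354 ± 26.9 against 371 ± 18.9 CPM (-0.07 ± 0.07, adjusted p = 0.45) and at 216 ± 18.0 against 233 ± 23.9 CPM (-0.11 ± 0.12, adjusted p = 0.493).

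**Figure D2:**
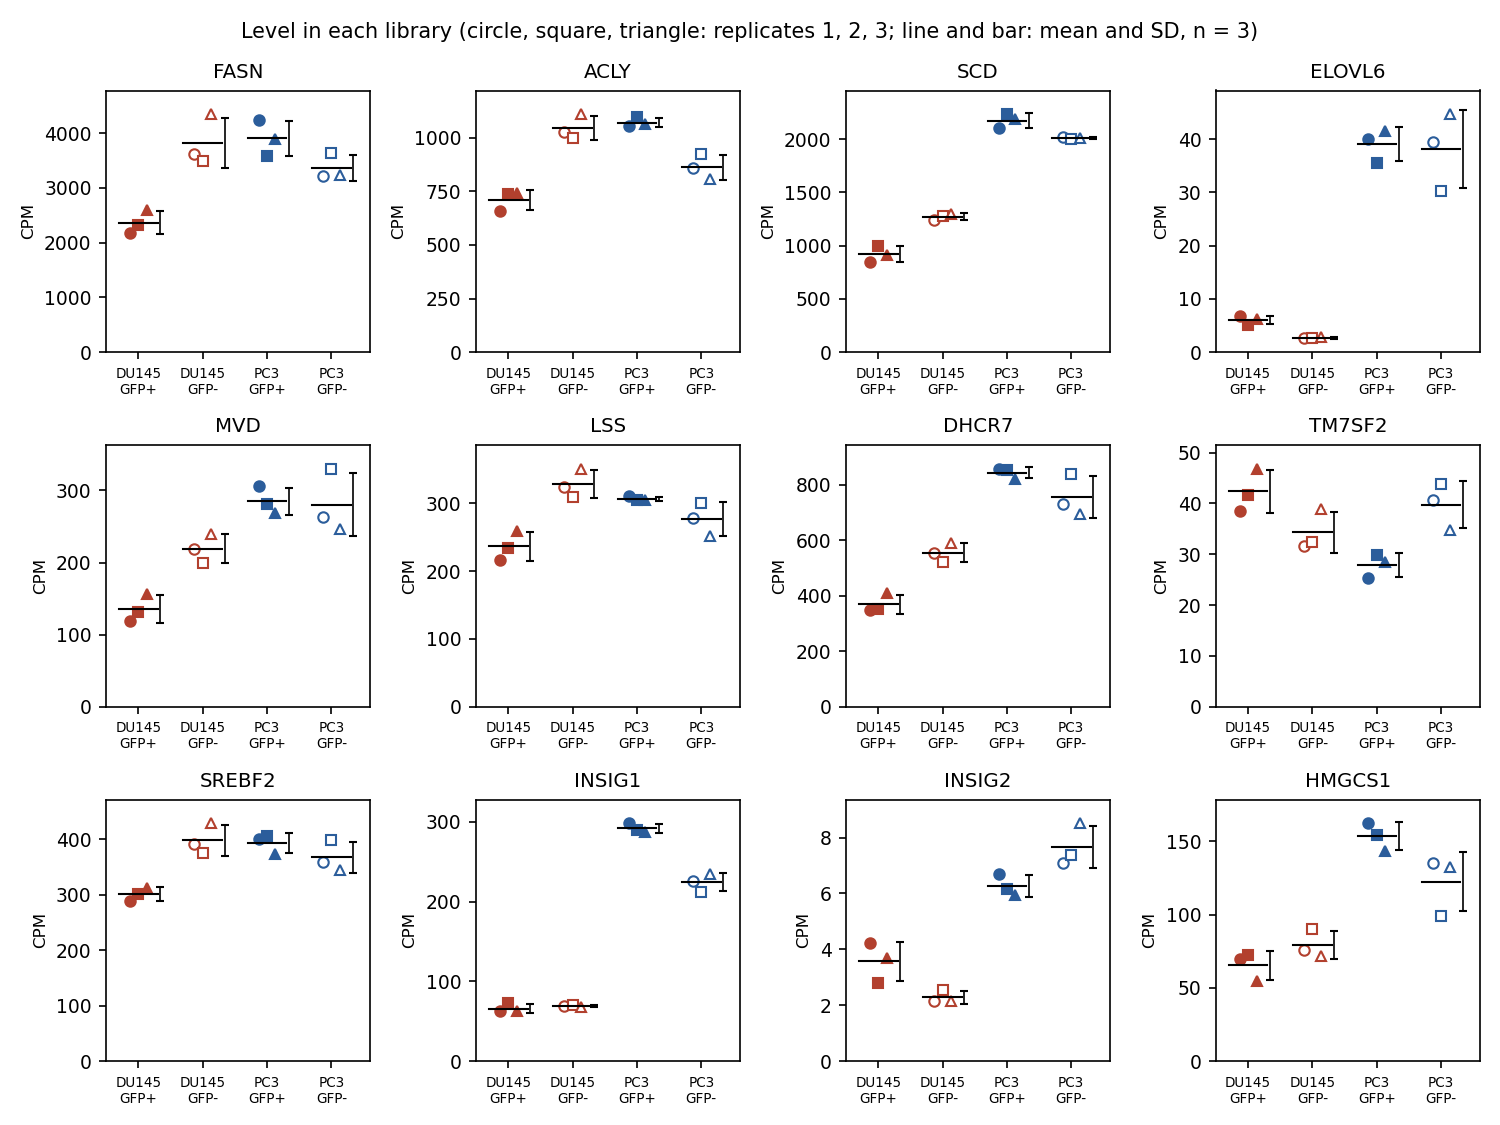
Level in CPM (y axis, from 0) of 12 of the 33 genes in each library, by line and sort (x axis); the line is the mean and the bar the SD of 3 libraries. In DU145 the GFP+ libraries of FASN, ACLY, SCD, MVD, LSS, DHCR7 and SREBF2 lie below the GFP- libraries and those of ELOVL6 and INSIG2 above them, and in PC3 INSIG1 and ACLY are higher and TM7SF2 lower in GFP+ cells.

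Summed over genes, the fatty acid arm was at 4832 ± 326 CPM in DU145 GFP+ and 7067 ± 582 CPM in GFP- libraries, a sum led by FASN. The mevalonate and sterol arms together were at 2004 ± 157 against 2668 ± 91.5 CPM. For both sums the highest DU145 GFP+ library lay below the lowest GFP- library (5092 against 6679.9 CPM for fatty acids, 2165 against 2586 CPM for cholesterol). The 6 control and transport genes summed to 863 ± 47.8 against 1066 ± 83.5 CPM, also without overlap (916 against 986 CPM). In PC3 the fatty acid arm was at 7899 ± 224 CPM in GFP+ and 6973 ± 279 CPM in GFP- libraries, and the mevalonate and sterol arms together at 3641 ± 91.8 against 3448 ± 217 CPM. There the lowest GFP+ library lay above the highest GFP- library for fatty acids (7679 against 7294 CPM) and for control and transport (1142 against 1127 CPM). The PC3 cholesterol sums overlapped (3536 against 3669 CPM).

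**Figure D3:**
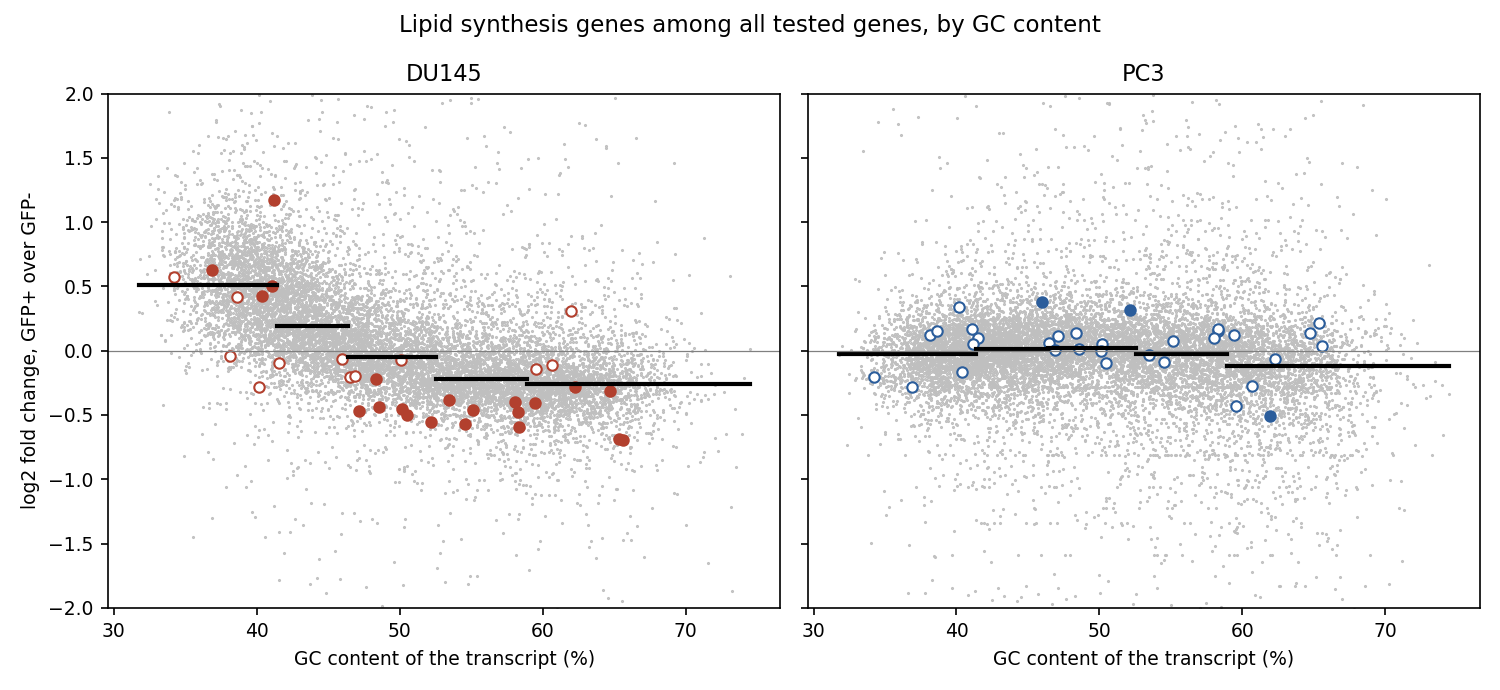
Log2 fold change between GFP+ and GFP- cells (y axis) against GC content of the transcript in percent (x axis) for all tested genes (grey) and the 33 lipid genes (coloured, filled where the adjusted p was under 0.05), with black bars at the medians of 5 equal classes of genes by GC content. The y axis spans -2 to 2 and leaves out 127 DU145 and 182 PC3 genes, and the DU145 medians run from 0.51 in the lowest to -0.26 in the highest class.

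The median GC content was 50.2% for the 33 genes and 49.3% for all tested genes. With all genes ordered by GC content and cut into 5 equal classes, the 9 lipid genes of the middle class had a DU145 median of -0.44, against -0.05 for all genes there, and the 6 of the next class had -0.47 against -0.22. The 8 in the lowest class, among them ELOVL6, INSIG2, IDI1 and GGPS1, had a median of 0.47, against 0.51 for all genes there. The 8 in the highest class had -0.30, against -0.26. The 4 genes that rose thus all lay in the lowest class, where genes in general were higher in DU145 GFP+ cells. The part of base composition in these differences cannot be told apart from that of the sort in these libraries.

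In PC3, few of the 33 genes differed between GFP+ and GFP- cells. INSIG1 and ACLY rose and TM7SF2 fell, 3 of 33 or 9.09%, where 9.44% of all tested genes changed (4.17% upward, 5.27% downward), so the share was near that of all genes. The median log2 fold change of the 33 was 0.06, against -0.02 for all tested genes, and the trend with GC content was weak (rho -0.11 for all genes, -0.08 for the 33). INSIG1 (ENSG00000186480, chromosome 7, 155297776 to 155310235) stood at 298, 289.7 and 288 CPM in GFP+ and 226, 212 and 235 CPM in GFP- libraries. Its groups lay far apart relative to their spread, with a log2 fold change of 0.38 ± 0.07 (limma adjusted p = 0.00479). ACLY stood at 1054, 1096 and 1064 CPM in GFP+ and 861, 923 and 807 CPM in GFP- libraries (0.31 ± 0.07, adjusted p = 0.0179). TM7SF2, which shares 16 exon bases with VPS51 on the same strand, stood at 25.3, 29.8 and 28.5 CPM in GFP+ and 40.7, 43.9 and 34.8 CPM in GFP- libraries (-0.51 ± 0.12, adjusted p = 0.0174). Neither of these overlapped between groups. In the mevalonate arm 0 of 8 passed the limma test, with 1 higher and 1 lower at an unadjusted p under 0.05, and voom called 0 higher and 1 lower.

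The other PC3 differences did not pass. FASN stood at 4231, 3586 and 3900.4 CPM in GFP+ and 3214, 3634 and 3236 CPM in GFP- libraries, overlapping through replicate 2 of each group (log2 fold change 0.22 ± 0.11, limma adjusted p = 0.248). HMGCS1 stood at 162, 155 and 143 CPM in GFP+ and 135, 99.4 and 133 CPM in GFP- libraries, without overlap but with GFP- replicate 2 far below the others (0.34 ± 0.14, adjusted p = 0.151). SCD stood at 2102, 2233 and 2187 CPM in GFP+ and 2020.2, 2002 and 2015 CPM in GFP- libraries, a small difference without overlap (0.11 ± 0.07, adjusted p = 0.395). PMVK was at 40.9 ± 2.82 against 55.6 ± 10.0 CPM (-0.43 ± 0.13, adjusted p = 0.0576). ELOVL6 was at 39.0 ± 3.20 against 38.1 ± 7.32 CPM (0.05 ± 0.16, 95% interval -0.30 to 0.40, adjusted p = 0.905). The rest had log2 fold changes from -0.29 (INSIG2) to 0.17 (IDI1).

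Single libraries decided the PC3 count. It was 1 without PC3 GFP+ replicate 1 and 1 without PC3 GFP- replicate 1, in fits that called 5.27% and 6.48% of all genes. ACLY lost its call without any PC3 GFP+ library or PC3 GFP- replicate 1 or 3 (limma adjusted p = 0.0529 to 0.0741), and TM7SF2 without PC3 GFP+ replicate 1 or PC3 GFP- replicate 1 or 2 (0.063 to 0.087), while INSIG1 was called whichever 1 library was left out. PC3 GFP- replicates 2 and 3 correlated least within that group (0.977). Without both, which leaves 1 library in that group, the median log2 fold change of the 33 was 0.03, against -0.04 for all tested genes. With the GC and length trend removed, 11 of the 33 rose and 2 fell in PC3, where 19.6% of all genes changed, and FASN (0.40, adjusted p = 0.000425), SREBF1 (0.30, 0.000116) and HMGCS1 (0.34, 0.00632) were among the rises. Equal library medians left 1 call, a rise, and quantile normalization gave 4 rises and 1 fall, where 7.35% and 9.93% of all genes changed.

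The difference between GFP+ and GFP- cells itself differed between the lines for 19 of the 33 genes, 57.6%, where 15.9% of all tested genes passed the same limma test of the difference (7.06% more positive in DU145, 8.82% more negative). It was more negative in DU145 for 15 and more positive for 4 (GGPS1, TM7SF2, INSIG2 and ELOVL6), with a median of -0.36, against 0.05 for all tested genes. FASN had a log2 fold change of -0.69 in DU145 and 0.22 in PC3, a difference of -0.90 ± 0.15 (adjusted p = 0.00174). ACLY passed in both lines with opposite signs, -0.56 in DU145 and 0.31 in PC3 (difference -0.87 ± 0.11, adjusted p = 0.000218). TM7SF2 had the reverse pattern, 0.31 and -0.51, of which the PC3 value passed (difference 0.82 ± 0.17, adjusted p = 0.00743). DHCR7 was at -0.59 and 0.17 (difference -0.76 ± 0.12, adjusted p = 0.00151), and ELOVL6 at 1.17 and 0.05 (difference 1.12 ± 0.23, adjusted p = 0.00653). INSIG1 was at -0.06 and 0.38 (difference -0.44 ± 0.10, adjusted p = 0.0125).

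The count of genes whose sort difference differed between lines was 11 without DU145 GFP- replicate 1, 11 without PC3 GFP+ replicate 2 and 12 without DU145 GFP- replicate 3. In these fits 9.28%, 9.14% and 9.19% of all genes passed, against 15.9% with every library. Without DU145 GFP+ replicates 1 and 2 the median of the 33 was -0.28, and without PC3 GFP- replicates 2 and 3 it was -0.39. HMGCS1 lost its call without DU145 GFP+ replicate 1 or 3, any DU145 GFP- library, any PC3 GFP+ library or any PC3 GFP- library (limma adjusted p = 0.0503 to 0.101), FDPS without DU145 GFP+ replicate 1 or 2, DU145 GFP- replicate 1 or 3, PC3 GFP+ replicate 1 or 2 or PC3 GFP- replicate 1 or 3 (0.0593 to 0.0707) and GGPS1 without DU145 GFP+ replicate 1 or 2, DU145 GFP- replicate 1 or 3, any PC3 GFP+ library or PC3 GFP- replicate 1 or 3 (0.0674 to 0.108). ACSS2 lost it without DU145 GFP+ replicate 1 or 2, DU145 GFP- replicate 1 or 3, any PC3 GFP+ library or PC3 GFP- replicate 1 or 3 (0.061 to 0.123), INSIG2 without DU145 GFP+ replicate 1, DU145 GFP- replicate 1 or 3, any PC3 GFP+ library or PC3 GFP- replicate 1 or 3 (0.0703 to 0.105) and FDFT1 without DU145 GFP+ replicate 1, DU145 GFP- replicate 1 or 3, PC3 GFP+ replicate 1 or 2 or PC3 GFP- replicate 3 (0.0586 to 0.0735). ACAT2 lost it without DU145 GFP- replicate 1 or PC3 GFP+ replicate 2 (0.0514 to 0.0571), ACACA without DU145 GFP- replicate 1 or PC3 GFP+ replicate 2 (0.0563 to 0.0583) and MVK without DU145 GFP- replicate 3 (0.0537). With equal library medians 2 were more positive and 17 more negative, where 16.4% of all genes passed. The labels name no batch, so line and any difference in handling cannot be told apart.

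Levels of these genes differed between the lines about as often as levels of genes in general. Over both sorts, 28 of the 33 differed, 84.8%, where 77.5% of all tested genes did (38.3% higher in DU145, 39.2% higher in PC3). PC3 had the higher level for 25 and DU145 for 3 (SCAP, FADS1 and FADS2), with a median log2 difference (DU145 minus PC3) of -0.57, against -0.01 for all tested genes. ELOVL6 and FADS2, an elongase and a desaturase, lay at opposite ends. ELOVL6 was at 6.03 and 2.66 CPM in DU145 GFP+ and GFP- cells and at 39.0 and 38.1 CPM in PC3 (-3.26 ± 0.12, limma adjusted p = 2.03e-11). FADS2 was at 202, 208 and 236 CPM in DU145 GFP+, 224, 215 and 260.4 CPM in DU145 GFP-, 22.5, 22.7 and 21.4 CPM in PC3 GFP+ and 22.9, 33.1 and 25.6 CPM in PC3 GFP- libraries, 9.15-fold higher in DU145 (3.19 ± 0.09, adjusted p = 1.65e-12). Its neighbour FADS1 was close between lines (0.19 ± 0.05, adjusted p = 0.00274, and -0.03 with quantile normalization). INSIG1 (-1.93 ± 0.05), SC5D (-1.92 ± 0.13), ACAT2 (-1.69 ± 0.06) and STARD4 (-1.63 ± 0.16) were also far higher in PC3.

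The 5 genes that did not pass between lines were PMVK, FDFT1, LSS, TM7SF2 and SREBF1. SREBF2 passed (-0.13 ± 0.05, limma adjusted p = 0.0335) but not without DU145 GFP+ replicate 1 or 2, DU145 GFP- replicate 1 or 2, PC3 GFP+ replicate 1 or 2 or PC3 GFP- replicate 2 (0.0526 to 0.0825), and was at 0.01 with equal library medians, which moved the all-gene median to 0.13. MSMO1 (-0.20 ± 0.07, adjusted p = 0.0261) did not pass without DU145 GFP+ replicate 1 or 3, DU145 GFP- replicate 1, PC3 GFP+ replicate 2 or PC3 GFP- replicate 1 (0.0513 to 0.0747). Per kilobase of transcript, so that genes can be compared, FASN was highest in both lines at 361 ± 100.2 CPM per kb in DU145 and 424 ± 45.7 CPM per kb in PC3 (SD over 6 libraries, both sorts). In DU145 it was followed by FDPS (223 ± 41.7), SCD (204 ± 37.1), ACLY (202 ± 43.6) and DHCR7 (173 ± 39.9), neighbours that lay within 1 SD of each other. In PC3 SCD came next (390.4 ± 18.3), also within 1 SD of FASN, then DHCR7 (299 ± 26.1) and FDPS (291 ± 25.8). The lowest were ELOVL6 (0.673 ± 0.296) and INSIG2 (1.13 ± 0.328) in DU145 and INSIG2 (2.69 ± 0.359) and ELOVL6 (5.98 ± 0.787) in PC3.

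**Figure D4:**
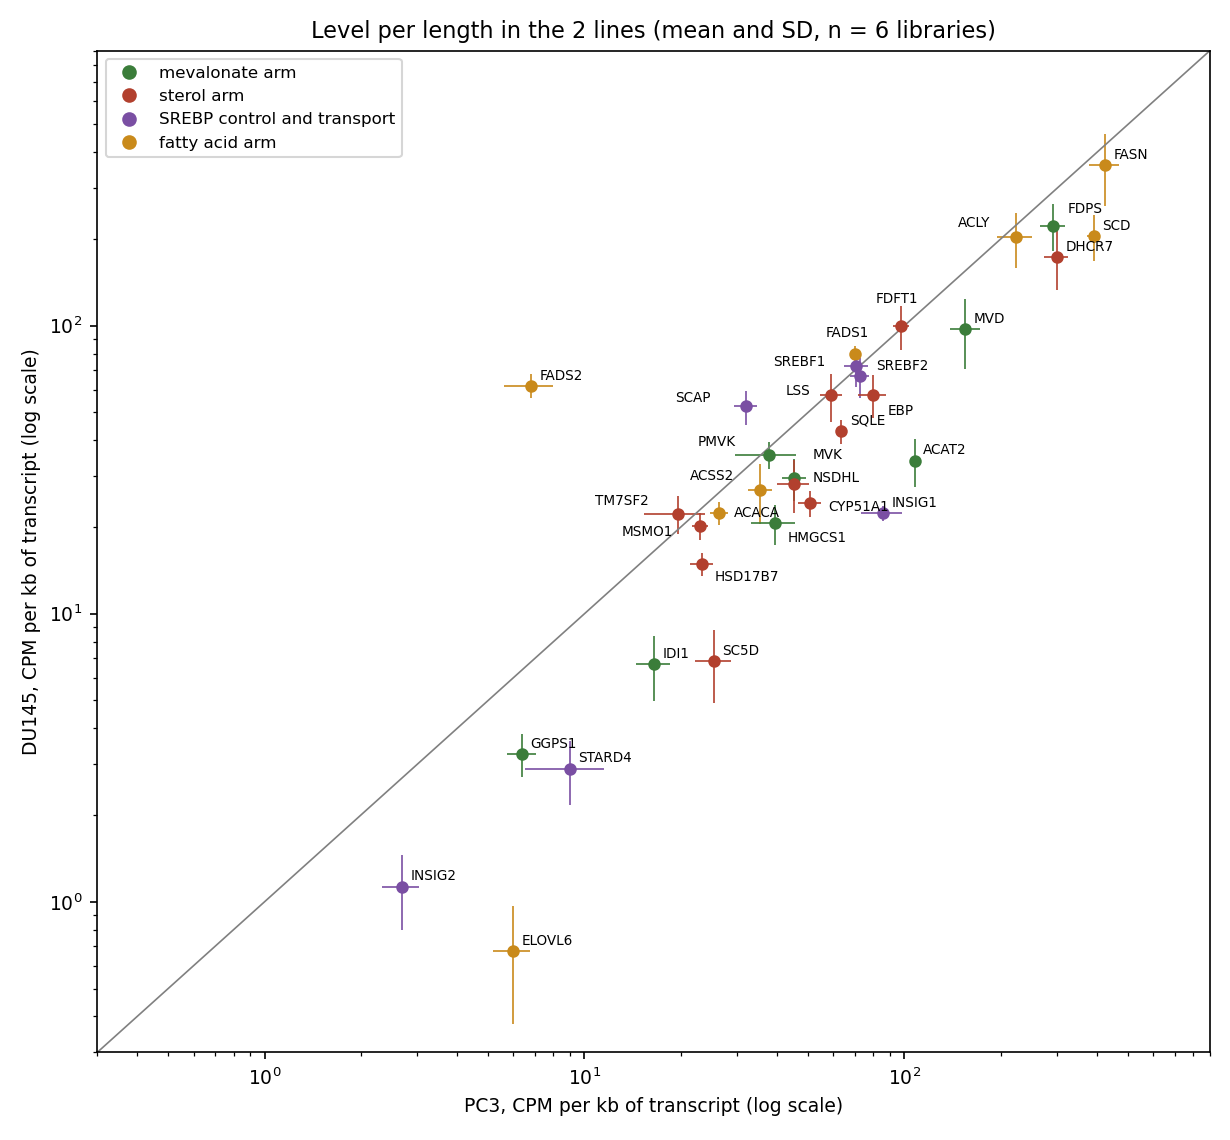
Level of each of the 33 genes in DU145 (y axis) against PC3 (x axis) in CPM per kb of transcript, both axes logarithmic; points are means and bars SDs of 6 libraries of a line, colours give the role, and the diagonal marks equal levels. FADS2 lies farthest to the DU145 side and ELOVL6 farthest to the PC3 side, and FASN is highest in both lines.

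Genes around these pathways gave mixed pictures. Of 14 genes for sterol sensing, SREBP cleavage and sterol-dependent degradation, 3 rose and 2 fell in DU145 (35.7%, against 27.1% of all tested genes; median 0.06, against -0.01), and 1 rose and 1 fell in PC3 (14.3%, against 9.44%; median 0.08, against -0.02). MBTPS2, the protease that makes the last SREBP cut, rose in DU145 (0.68 ± 0.17, limma adjusted p = 0.0157) and fell in PC3 (-0.64 ± 0.17, adjusted p = 0.034). UBE2G2, a ubiquitin-conjugating enzyme of the endoplasmic reticulum, fell in DU145 (-0.24 ± 0.06, adjusted p = 0.0186) and rose in PC3 (0.33 ± 0.06, adjusted p = 0.00583). UFD1L, which helps extract proteins for degradation, fell in DU145 (-0.58 ± 0.11, adjusted p = 0.00402), and FBXW7, a ubiquitin ligase subunit that targets nuclear SREBPs, rose there (0.57 ± 0.18, adjusted p = 0.0348). MBTPS2 lost its DU145 call without DU145 GFP+ replicate 1 or 2 or DU145 GFP- replicate 3 (0.0537 to 0.0762) and its PC3 call without DU145 GFP+ replicate 2, any PC3 GFP+ library or PC3 GFP- replicate 1 or 3 (0.0508 to 0.136). UBE2G2 lost its DU145 call without DU145 GFP+ replicate 1 or DU145 GFP- replicate 3 (0.0628 to 0.0805), and FBXW7 without DU145 GFP+ replicate 1 or 2 or DU145 GFP- replicate 1 or 3 (0.0995 to 0.148).

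Of 15 genes that use isoprenoids, 3 rose and 3 fell in DU145 (40%, against 27.1% of all tested genes; median 0.07), and 0 changed in PC3 by limma, where 9.44% of all tested genes did (1 higher and 1 lower at an unadjusted p under 0.05, 0 by voom; median 0.09). In DU145 the subunits of the Rab geranylgeranyl transferase parted, with RABGGTA lower (-0.53 ± 0.10, limma adjusted p = 0.00564) and RABGGTB higher (0.91 ± 0.19, adjusted p = 0.00813). ICMT, which methylates prenylated proteins, fell (-0.34 ± 0.06, adjusted p = 0.00325). ZMPSTE24, a protease for prenylated proteins, rose (0.46 ± 0.14, adjusted p = 0.0327), but was at -0.06 with the GC and length trend removed and lost its call without DU145 GFP+ replicate 1 or 2 or DU145 GFP- replicate 1 or 3 (0.0919 to 0.147). Of 16 genes for LXR control, efflux, esterification and lysosomal release of cholesterol, 13 met the minimum and 1, or 7.69%, passed in each line, against 27.1% of all tested genes in DU145 and 9.44% in PC3. LIPA, the lysosomal acid lipase, was the 1 that fell in DU145 (-0.33 ± 0.08, adjusted p = 0.0157, and 0.0612 to 0.0676 without DU145 GFP+ replicate 1 or DU145 GFP- replicate 3), and RXRA, the partner of LXR, the 1 that fell in PC3 (-0.48 ± 0.11, adjusted p = 0.0131, and 0.066 without PC3 GFP+ replicate 2). None rose in either line by limma or voom, with 1 higher in each at an unadjusted p under 0.05.

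Of 26 further genes of fatty acid synthesis, activation and glycerolipids, 25 met the minimum, 1 rose and 3 fell in DU145 (16%, against 27.1% of all tested genes; median 0.02), and 1 rose and 2 fell in PC3 (12%, against 9.44%; median -0.03). ACSL3, which activates fatty acids, rose in DU145 (0.75 ± 0.13, limma adjusted p = 0.00243). SLC25A1, the mitochondrial citrate carrier that feeds ACLY, fell there (-0.57 ± 0.12, adjusted p = 0.00667), as did the elongase ELOVL1 (-0.39 ± 0.09, adjusted p = 0.0122, and 0.0518 to 0.0607 without DU145 GFP+ replicate 1 or DU145 GFP- replicate 1 or 3). AGPAT2, which acylates lysophosphatidate, fell in PC3 (-1.14 ± 0.14, adjusted p = 0.000197). Of 17 genes of fatty acid oxidation, 16 met the minimum, 0 rose and 2 fell in DU145 (12.5%, below the 27.1% of all tested genes; median -0.12), and 0 rose and 3 fell in PC3 (18.8%, above the 9.44%; median -0.20). By voom 0 rose in either line, and at an unadjusted p under 0.05 the limma fit had 2 higher in DU145 and 0 in PC3. CPT1A, which brings fatty acids into mitochondria, fell in DU145 (-0.55 ± 0.08, adjusted p = 0.0011) and in PC3 (-0.33 ± 0.08, adjusted p = 0.0218, and 0.0713 to 0.0932 without PC3 GFP+ replicate 1 or 3 or PC3 GFP- replicate 2). The β-oxidation enzymes HADHA in DU145 (-0.28 ± 0.08, adjusted p = 0.0261, and 0.0797 to 0.121 without DU145 GFP+ replicate 1 or 2 or DU145 GFP- replicate 1 or 3), ECI2 in PC3 (-0.49 ± 0.09, adjusted p = 0.00291) and DECR1 in PC3 (-0.44 ± 0.12, adjusted p = 0.0428, and 0.0527 to 0.146 without DU145 GFP- replicate 1, any PC3 GFP+ library or any PC3 GFP- library) also fell.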

How the data were processed

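RNA from DU145 and PC3 cells sorted by GFP was sequenced in 12 libraries. The authors deposited 1 table of log2 normalized counts, named so per the labels. From the values, each entry equals the log2 of the estimated count plus 0.5 per 1000000 of a scaled library total, and 86.9% of recovered counts in the median library were whole within 0.01. STAR and DESeq2 are named per the submitters' processing notes, without versions, and the sources used here give neither genome build nor counting method. Groups were taken from the labels. The deposited log2 values were fitted with limma 3.58.1 in R 4.3.3 (4 group means, variance trend, 8 residual degrees of freedom, two-sided, Benjamini-Hochberg within each comparison) for genes at log2 of 0 or more in at least 3 of 12 libraries. The script was tested on simulated data. GENCODE (GRCh38) gave positions, length and GC content for 12510 of the 12527 tested genes, and GC and length trends were removed per library by loess (span 0.4). CPM values are the deposited values out of the log scale. Totals set the precision, and a count of 0 allowed 0.13 to 0.233 CPM, at 3 counts. The 28 alternatives covered the minimum, offset, scaling, variance model, GC, replicate block and libraries left out. Genes named outside the 33 were the called genes of each list with the smallest p. The members and lists were chosen with earlier results of these data known.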

Additional observations from a re-analysis of the deposited data

Results flagged for a closer look

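For 19 of the 33 genes the log2 fold change between GFP+ and GFP- cells differed between DU145 and PC3 by a test of the difference itself (limma, adjusted p under 0.05). The value given for each is the DU145 fold change minus the PC3 fold change on the log2 scale. In the mevalonate arm it was more negative in DU145 for HMGCS1 (-0.62), MVK (-0.53), MVD (-0.73), FDPS (-0.53) and ACAT2 (-0.50) and more positive for GGPS1 (0.59). In the sterol arm it was more negative for FDFT1 (-0.45), LSS (-0.63) and DHCR7 (-0.76) and more positive for TM7SF2 (0.82). Among the control genes it was more negative for INSIG1 (-0.44) and SREBF2 (-0.50) and more positive for INSIG2 (0.92). In the fatty acid arm it was more negative for FASN (-0.90), ACACA (-0.36), ACLY (-0.87), SCD (-0.58) and ACSS2 (-0.48) and more positive for ELOVL6 (1.12). With the GC and length trend removed, 17 of these 19 passed and 23 of the 33 in all, and GGPS1 and INSIG2 were the 2 that did not. That fit called 25% of all genes for the difference, against 15.9% in the main fit.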

How the results depend on the processing

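The DU145 count of 21 was 13 with quantile normalization, 11 at an adjusted p under 0.01 and 12 to 23 with 1 library left out. The PC3 count of 3 was 1 with equal library medians, 5 with quantile normalization, 16 with library weights (whose estimation did not converge), 5 with the replicate block, 13 with the GC and length trend removed, 13 with that and the replicate block, 1 at an adjusted p under 0.01, 0 without PC3 GFP- replicates 2 and 3, and 1 to 4 with 1 library left out. The count of 19 for the difference between lines was 11 with quantile normalization, 8 at an adjusted p under 0.01, 9 without DU145 GFP+ replicates 1 and 2, 12 without PC3 GFP- replicates 2 and 3, and 11 to 22 with 1 library left out. The line count of 28 was 27 to 28 with 1 library left out, 24 with equal medians, 31 with quantile normalization and 25 at an adjusted p under 0.01. The share of all genes called moved as well. In DU145 it was 27.1% in the main fit, 18% with quantile normalization and 6.26% at an adjusted p under 0.01. With 1 library left out it was 7.15% to 44.7% there. For the difference between lines these shares were 15.9%, 13.1%, 5.65% and 9.14% to 29.2%. For levels between lines the share was 77.5% in the main fit, 77% with equal medians, 77.8% with quantile normalization and 68.8% at an adjusted p under 0.01. With 1 library left out that share was 74.4% to 78.3%. Among values called in either fit, signs reversed for MSMO1 in DU145 (0.19 with library weights), ZMPSTE24 in DU145 (-0.0616 with the GC and length trend removed, with or without the block), and, between lines, SREBF2 (0.0112 with equal medians), FDFT1 (-0.17), SREBF1 (-0.20) and FADS1 (-0.0263) with quantile normalization. Differences called in neither fit also turned, and in DU145, removing the GC and length trend turned, among others, STARD4 (0.58 to -0.17), SC5D (0.42 to -0.02), PMVK (-0.14 to 0.07) and FADS2 (-0.11 to 0.12), and library weights turned CYP51A1 (-0.10 to 0.12). The cause was not tested. The replicate block gave 26 calls in DU145, 21 for the difference and 29 between lines, where 38.7%, 26.5% and 79.3% of all genes were called. In PC3, 9.44% of all genes were called in the main fit, 45.3% with library weights and 12.4% with the replicate block. With the GC and length trend removed the PC3 share was 19.6%, and 21.8% with the block added. It was 7.35% with equal library medians, 9.93% with quantile normalization and 4.2% at an adjusted p under 0.01. With 1 library left out the PC3 share was 5.27% to 11.9%. Same-numbered libraries correlated at -0.02, 0.09 and 0.21 in DU145 and at 0.06, 0.20 and 0.14 in PC3, so the numbers were not taken to pair libraries. In PC3 every library correlated best with its own number, in DU145 not. In DU145 10 of 21 called genes lost their call in at least 1 fit without 1 library, in PC3 2 of 3. Depth limits ELOVL6 and INSIG2 most, at 124 and 106 counts in DU145 GFP-.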
